A study of Mus musculus with 12 samples.

Results

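Cell cycle and DNA replication genes were followed in the liver of mice that differ in genotype and diet. The set was 35 gene symbols: the cyclins and Cdk1, the factors that license and copy DNA, and the genes of mitosis. A gene was measured by a probe set annotated to a single symbol, and by the one of highest mean where it had several. On that rule 34 of the 35 symbols had a value, among 19938 genes in all, and Ccnb1 was not analysed here. Each of the 34 symbols matched a gene in the RefSeq gene table.

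The 12 liver samples came from male C57BL/6N mice killed at 110 days of age after a 6-hour fast, and were run in 4 groups of 3 arrays. WT_CD and WT_MR were wild type mice on the control diet and on methionine restriction. KI_CD and KI_MR were mice homozygous for the Lmna G609G knock-in allele (Lmna G609G/G609G KI) on the same diets, begun at 7 weeks of age. The allele models Hutchinson-Gilford progeria and is carried by every cell of the animal, so the liver is not its only site of action. The mice were caged by genotype, so cage and genotype cannot be told apart. Nothing in the labels ties each array to its own animal, and p-values therefore measure the spread between these samples. Lmna itself read 162 to 198 units in the 6 WT arrays and 216 to 330 units in the 6 KI arrays, but this value does not separate lamin A from progerin and so does not check the labels.

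A cell enters the cycle when D-type cyclins and then cyclin E drive phosphorylation of the retinoblastoma protein and free E2F factors, which switch on the genes for DNA replication. Genes of G2 and mitosis come on later and are held off in resting cells by the DREAM complex. That complex acts at a promoter element, the CHR. Adult hepatocytes are mostly quiescent, and their division is best known from regeneration after partial hepatectomy, when Ccnd1 is induced before the replication and mitotic genes. Most of the transcripts followed here are therefore scarce in a resting liver.

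The promoters of the set were searched for the CHR, for E2F sites and for the CCAAT box. RefSeq (GRCm38.p6) promoter windows, from 250 bases before to 50 bases after the start of the gene, were at hand for 28 of the 35 symbols, and not for Ccnd1, Ccnd2, Ccne2, Ccna2, Mcm4, Aurkb and Foxm1. The words searched on both strands were CCAAT for the CCAAT box, TTTGAA and TTCGAA for the CHR, and TTTCCCGC, TTTCGCGC, TTTGCCGC and TTTGGCGC for the E2F site. The 7 windows below are shown because their genes bear the results on single arrays and on genotype, or are licensing genes set beside them. Each is the 150 bases before the start, 5′ to 3′ on the strand of the gene, with every match to a searched word, on either strand, in capitals.
Cdk1 (chr10:69352913-69353062, minus strand): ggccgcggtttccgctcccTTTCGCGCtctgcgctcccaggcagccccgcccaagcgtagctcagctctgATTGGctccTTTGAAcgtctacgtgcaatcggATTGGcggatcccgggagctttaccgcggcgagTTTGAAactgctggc
Ccnb2 (chr9:70421555-70421704, minus strand): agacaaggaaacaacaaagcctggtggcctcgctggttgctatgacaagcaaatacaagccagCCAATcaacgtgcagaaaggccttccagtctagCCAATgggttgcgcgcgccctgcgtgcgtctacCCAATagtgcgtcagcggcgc
Cdc20 (chr4:118437344-118437493, minus strand): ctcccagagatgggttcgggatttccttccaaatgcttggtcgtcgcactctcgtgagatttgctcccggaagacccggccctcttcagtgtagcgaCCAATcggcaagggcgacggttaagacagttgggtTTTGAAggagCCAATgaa
Top2a (chr11:99024190-99024339, minus strand): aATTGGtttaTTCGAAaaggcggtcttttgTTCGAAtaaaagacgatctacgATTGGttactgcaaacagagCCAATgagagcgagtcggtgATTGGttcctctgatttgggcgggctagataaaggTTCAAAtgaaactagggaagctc
Mki67 (chr7:135716380-135716529, minus strand): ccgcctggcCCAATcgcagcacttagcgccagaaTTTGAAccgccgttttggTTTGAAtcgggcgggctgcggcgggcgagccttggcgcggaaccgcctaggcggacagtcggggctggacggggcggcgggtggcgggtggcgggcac
Mcm5 (chr8:75109359-75109508, plus strand): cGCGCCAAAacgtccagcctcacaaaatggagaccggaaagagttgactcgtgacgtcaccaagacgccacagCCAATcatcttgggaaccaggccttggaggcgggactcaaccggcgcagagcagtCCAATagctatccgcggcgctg
Mcm6 (chr1:128359706-128359855, minus strand): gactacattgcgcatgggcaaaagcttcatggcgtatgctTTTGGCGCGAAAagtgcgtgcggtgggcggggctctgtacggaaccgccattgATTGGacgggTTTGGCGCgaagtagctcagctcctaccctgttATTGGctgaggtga
The mitotic promoters (Cdc20, Top2a and Mki67 above) hold both a CHR and CCAAT boxes within the 150 bases, and Ccnb2 shows 3 CCAAT boxes there, with CHR words 167 bases before the start and just after it, outside the stretch shown. In the same 150 bases the licensing promoters of Mcm5 and Mcm6 hold E2F sites and CCAAT boxes and no CHR, and that of Cdk1 holds all 3 elements. Over the full windows, both a CHR and a CCAAT box were found in 12 of the 15 mitotic genes with an entry (80.0%), against 8.61% of 27025 genes with a promoter. Both were also found in 2 of 7 licensing genes (28.6%), Mcm2 and Mcm7, so not all licensing promoters lack a CHR. An E2F site was found in 6 of 7 licensing genes (85.7%), in 0 of the 15 mitotic genes and in 2.605% of all genes. A match shows only that these letters are present, and no factor was measured.

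Values are the deposited linear intensities, in whole units, and log2 changes were taken from them. Array medians over all genes were 82 to 90 units. The lower quartile of each array lay at 45 to 51 units, and a mean under it is called dim here, since no detection call came with the values. By that measure 7 of the 34 genes were dim in every group (Bub1, Bub1b, Cenpf, Cdca8, Kif11, Nusap1 and Prc1), and 12 in at least 1 group, Mki67, Top2a, Plk1, Ccna2 and Ccne2 being the others. A whole unit is a step of 0.0444 (log2) at 32 units, so small changes of these genes are coarse. In bulk liver, fewer cells in cycle and less of a transcript per cell cannot be told apart.

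A single array stood apart from all others in this set. KI_CD replicate 1 was the sole highest of the 12 arrays for 26 of the 34 genes, while 12.3% of all genes had their highest value there. The other 8 genes were Ccnd3, Ccne1, Ccne2, Mcm7, Cdc6, Pcna, Bub1 and Birc5. Taken as the median over the 34 genes of the log2 level minus the gene's mean, this array lay at 0.48 and the 11 others between -0.24 and 0.05. The deviation of this array was smaller when only the brighter 50% of genes were kept. Every result on the KI_CD group or on the spread between arrays rests partly on this array, and the counts of calls are given with and without it.

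**Figure D1:**
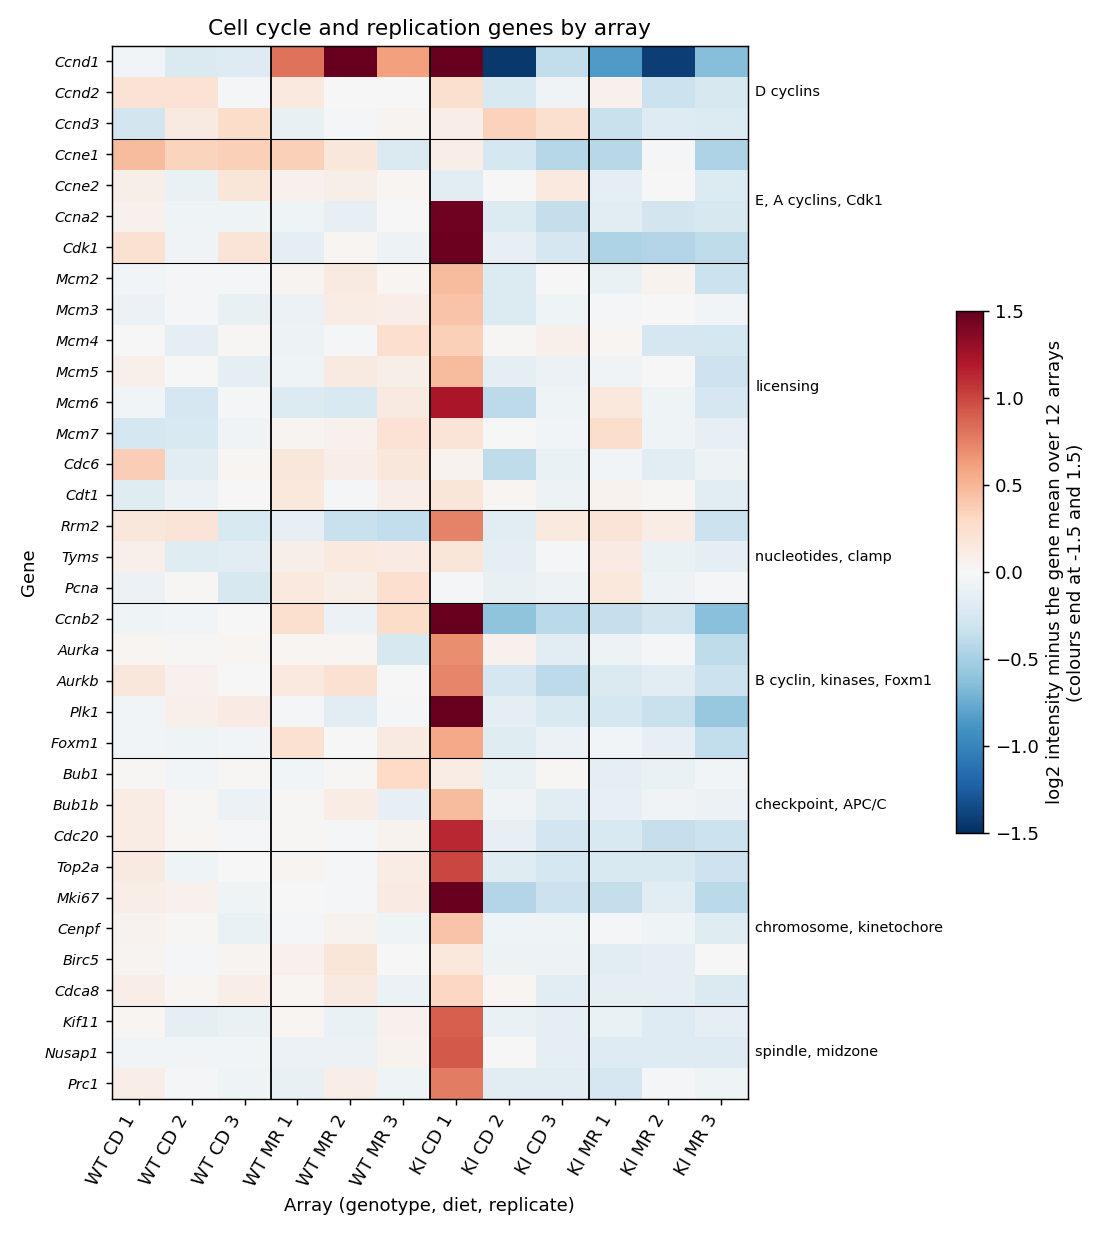
Log2 intensity of the 34 genes (rows, by role) in each of the 12 arrays (columns, by group), minus the mean of the gene over the arrays; the colour scale is capped at both ends. The column of KI_CD replicate 1 is red in nearly every row from Ccna2 down, and the other 5 KI columns are mostly blue in the mitotic rows.

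Against the mean of KI_CD replicates 2 and 3, KI_CD replicate 1 was higher for 32 of the 34 genes, with a median difference of 0.58 (log2) against 0.00 over all genes. It was more than 2-fold above them for 11 genes, against 1.04% of all genes; replicates 2 and 3 were dim for 5 of the 11, and 9 of the 11 stayed past 2-fold with dim values raised to the lower quartile. This is a description of 1 array against 2 and carries no test. In each role some genes had their sole highest value in this array. These were 6 of 8 licensing genes, 5 of 5 in the role of cyclin B, mitotic kinases and Foxm1, 4 of 5 chromosome genes and 3 of 3 spindle genes. The counts were 2 of 3 for the D-type cyclins, 2 of 4 for the E- and A-type cyclins with Cdk1, and 2 of 3 for the checkpoint genes. For nucleotide supply and the clamp it was 2 of 3. Some margins were narrow, as for Cdt1, with 163 units against at most 161 elsewhere.

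Ccnd1, the D-type cyclin of cell cycle entry, read 3316 units in KI_CD replicate 1, and 276 and 582 units in replicates 2 and 3. That is 7.73-fold their mean, the widest gap in the set. Ccnb2, a mitotic cyclin, read 392 units against 67 and 77 (5.44-fold). Mki67, the Ki-67 protein that coats mitotic chromosomes and marks cycling cells, read 127 units against 33 and 36, which are dim; set against the lower quartile of those arrays it was at least 2.76-fold higher. Plk1, a kinase of mitotic entry and spindle assembly, read 149 against 46 and 43 (at least 3.24-fold, by the same bound), and Ccna2, the cyclin of S phase and G2, 123 against 39 and 35 (at least 2.67-fold). Cdk1, the kinase those cyclins activate, read 198 against 66 and 60 (3.14-fold). Mcm6, a subunit of the replicative helicase, stood out among the licensing genes with 237 units against 77 and 97 (2.72-fold). The remaining 4 genes past 2-fold were Cdc20, an activator of the anaphase-promoting complex, Top2a, the topoisomerase that untangles sister DNA, Aurkb, the kinase of the chromosomal passenger complex, and Kif11, the motor that separates the spindle poles. The ratio was 2.52 for Cdc20 and 2.07 for Aurkb. Replicates 2 and 3 were dim for Top2a and Kif11, and the bounds there, at least 1.78-fold and 1.39-fold, do not reach 2-fold. The E-type cyclins did not have their highest value there. Ccne1 read 142 units against 110 and 98, below every WT_CD array, and Ccne2 read 41 against 46 and 51.

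**Figure D2:**
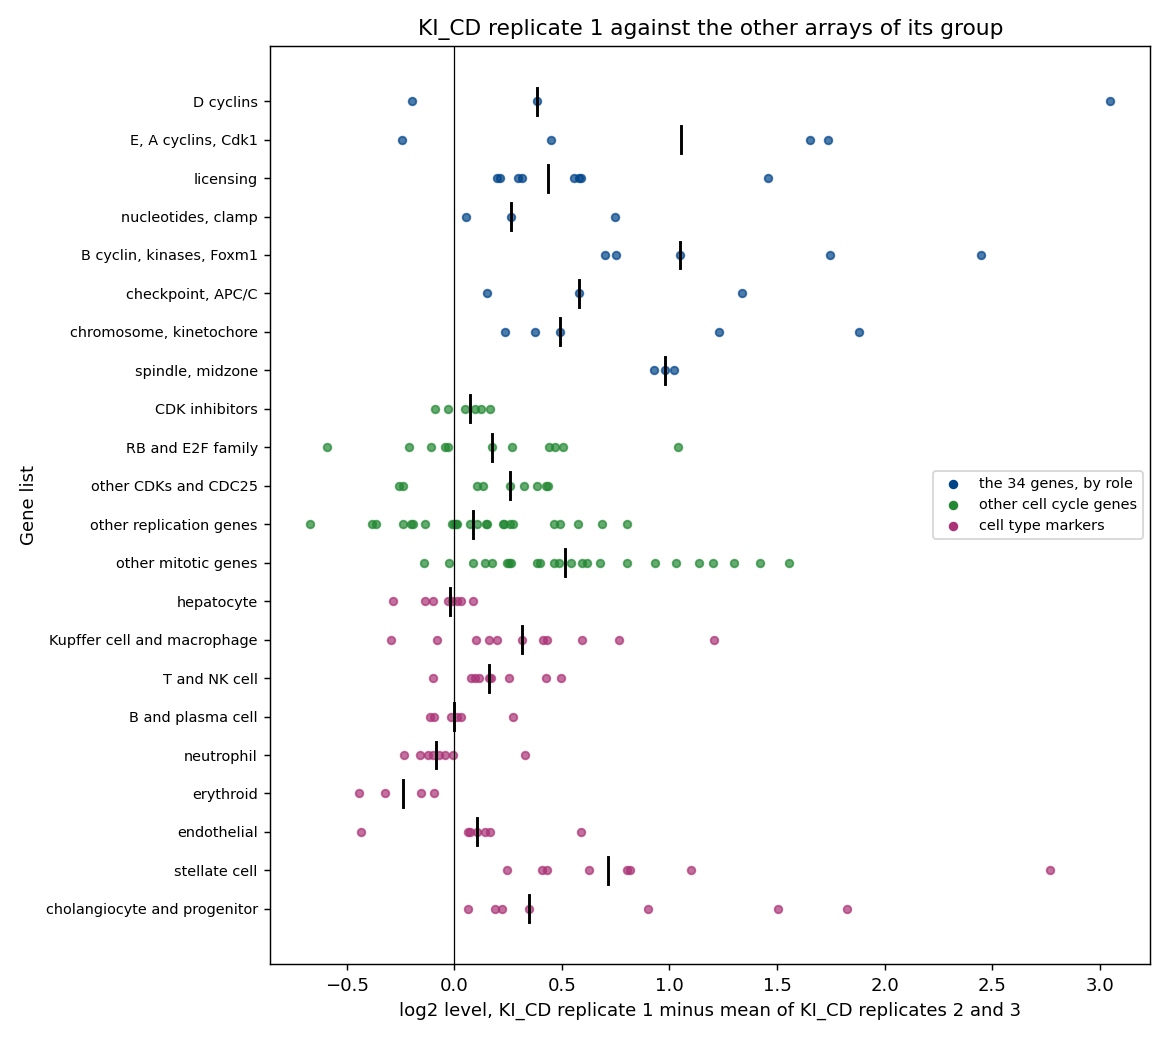
Log2 level in KI_CD replicate 1 minus the mean of KI_CD replicates 2 and 3 for single genes (points), by list (rows); black bars are list medians. Points lie right of 0 for most rows of the set, for the other mitotic genes and for the stellate cell markers, and near 0 for the CDK inhibitors and hepatocyte markers.

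Other genes of the cycle, from lists that hold no gene of the set, were high in the same array for some lists and not for others. KI_CD replicate 1 was the sole highest array for 17 of 24 other mitotic genes and 7 of 24 other replication genes. The counts were 4 of 9 for further CDKs and CDC25 phosphatases, 2 of 11 for the RB and E2F family and 0 of 6 for the CDK inhibitors, the brakes of the cycle. The share of all genes was 12.3%, and whether the lists differ was not tested.

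Markers of some other cell types were also high there. The summed level of 8 stellate cell markers was 5339 units in KI_CD replicate 1 and 2528 to 3818 units in the other 11 arrays, with 4 of the 8 markers highest in it, and none of the 8 was dim. Acta2, the smooth muscle actin of activated stellate cells and vessel walls, read 1337 units there and 131 to 695 elsewhere, the 695 in KI_MR replicate 3. The sum of 7 cholangiocyte and progenitor markers was 882 units against 495 to 1056, of which Epcam was dim, and 2 of the 7 markers were highest in it. KI_MR replicate 3 held the highest Krt19 of all arrays, 412 units against 204 in KI_CD replicate 1, and it was the sole lowest array for 12 of the 34 cycle genes and for 15.2% of all genes. Hepatocyte markers summed to 94534 units in KI_CD replicate 1, within the 81087 to 97472 of the others, and Kupffer cell markers to 8771, within 6859 to 12646. The sums of T and NK cell, B cell, neutrophil, erythroid and endothelial markers lay within those of the other 11 arrays as well. Against the mean of KI_CD replicates 2 and 3, KI_CD replicate 1 was higher for 8 of 8 stellate and 7 of 7 cholangiocyte markers. It was also higher for 9 of 11 Kupffer, 8 of 9 T and NK and 6 of 7 endothelial markers. The counts were 3 of 8 for hepatocytes, 3 of 6 for B cells, 1 of 8 for neutrophils and 0 of 4 for erythroid cells, beside 50.7% of all genes. The part of these cell types in the result was not tested.

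The first question the design puts is what the knock-in did to these genes on the control diet. With all 12 arrays, 0 of the 34 genes passed in KI_CD against WT_CD (limma, Benjamini-Hochberg adjusted p under 0.05), and 0.0802% of all genes did. Their median log2 change was 0.15, against -0.02 over all genes, with 27 of 34 above 0, where 43.1% of all genes lay. At an unadjusted p under 0.05, 1 gene was lower, against 4.73% of all genes, and 0 higher, against 6.48%, so neither count exceeds that of all genes. Without KI_CD replicate 1 the median was -0.09, and 27 of 34 were now below 0, where 57.9% of all genes lay, so the direction rests on that array. Again 0 of 34 passed (0.16% of all genes did), and 11 were lower at an unadjusted p under 0.05, against 4.19% of all genes. These were Ccnd2, Ccne1, Ccna2, Cdk1, Cdc6, Ccnb2, Aurkb, Plk1, Cdc20, Top2a and Mki67. The array was left out after its high values in this set were seen. Leaving it out lowers the KI_CD mean and the spread of these genes in particular, so that count and the share of all genes are not a like comparison.

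Ccne1, the cyclin that commits cells to S phase, was the member lower at the unadjusted threshold with KI_CD replicate 1 included. It read 183, 167 and 170 units in WT_CD and 142, 110 and 98 units in KI_CD, with no overlap. The log2 change was -0.59 ± 0.17 (SE, 3 arrays a group), with a limma adjusted p of 0.25, and -0.74 ± 0.17 with 0.167 without KI_CD replicate 1. Its WT_MR values were 169, 149 and 114, and its KI_MR values 99, 131 and 96, which overlap.

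On methionine restriction the 2 genotypes were compared with KI_CD replicate 1 in neither group. Other arrays stood out in these groups. WT_MR replicate 2 was the sole highest array for 19.4% of all genes and for 1 of the 34. KI_MR replicate 3 was the sole lowest for 15.2% of all genes and for 12 of the 34. KI_MR lay below WT_MR for 32 of the 34 genes, and for 62.2% of all genes, with a median log2 change of -0.18 against -0.04 over all genes. All 3 KI_MR arrays lay below all 3 WT_MR arrays for 15 of the 34 genes and above them for 0, while 8.82% of all genes were lower without overlap. The 15 genes were Ccnd1, Ccnd3, Ccne2, Ccna2, Cdk1, Cdc6, Ccnb2, Aurkb, Plk1, Foxm1, Cdc20, Top2a, Mki67, Cdca8 and Nusap1. Of these, Ccne2, Ccna2, Plk1, Top2a, Mki67, Cdca8 and Nusap1 were dim in KI_MR, and all but Ccne2 and Plk1 were dim in WT_MR too. Their lack of overlap rests on a few units: Nusap1 read 27 units in each KI_MR array and 29, 29 and 32 in WT_MR. With 3 arrays on each side, the smallest p an exact permutation test could give is 0.1.

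In the limma fit with all 12 arrays, 0 of 34 passed in this comparison, against 0.471% of all genes, and at an unadjusted p under 0.05, 3 were lower, against 7.59% of all genes, and 0 higher, against 6.55%. Those 3 are near the share of all genes. KI_CD replicate 1 enters here only through the spread shared by the groups. Without it, 1 of 34 passed, Ccnd1, against 1.13% of all genes, and 14 were lower at an unadjusted p under 0.05, against 8.36% of all genes. Leaving it out narrows the spread most for genes in which it stood apart, so these counts depend on that choice.

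Ccnd1 read 1315, 2262 and 1153 units in WT_MR and 416, 281 and 482 units in KI_MR. Every KI_MR array was under the lowest WT_MR array. The log2 change was -1.98, 3.93-fold lower in KI_MR, with an SE of 0.68 and a limma adjusted p of 0.219 with all 12 arrays, and an SE of 0.31 and an adjusted p of 0.0206 without KI_CD replicate 1. Over 22 alternatives the adjusted p ran from 0.0126 to 0.504 and was under 0.05 in 2 of them. The call was lost again when WT_MR replicate 1, WT_MR replicate 2 or KI_MR replicate 3 was also left out.

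The other genes nearest to a call here were mitotic. Ccnb2 read 121, 96 and 124 units in WT_MR and 80, 84 and 66 in KI_MR, a log2 change of -0.57 ± 0.12 (SE) with a limma adjusted p of 0.0512 without KI_CD replicate 1. Cdc20 read 85, 83 and 87 units against 72, 66 and 67, a change of -0.32 ± 0.07 with a limma adjusted p of 0.0637 in the same fit. Both were lower in each KI_MR array than in any WT_MR array.

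Diet within wild type mice is the next comparison. Of the 34 genes, 0 passed in WT_MR against WT_CD with all 12 arrays (limma, 0.326% of all genes did) and 0 without KI_CD replicate 1 (0.998% did). The median log2 change was 0.01 against 0.00 over all genes, with 21 of 34 and 47.4% of all genes above 0. At an unadjusted p under 0.05, 2 genes were higher, against 4.64% of all genes, and 0 lower, against 3.55%; without KI_CD replicate 1, 4 were higher, against 5.36%. All 8 licensing genes had a change above 0, with a median of 0.09. The WT_MR arrays were all above the WT_CD arrays for Ccnd1, Mcm2, Mcm7, Tyms, Pcna and Foxm1, and all below them for 0 genes, against 6.35% and 5.17% of all genes.

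Ccnd1 was the largest of these. It read 728, 643 and 654 units in WT_CD against the 1153 to 2262 of WT_MR, a log2 change of 1.16 ± 0.68 (SE) with a limma adjusted p of 0.769 with all 12 arrays. Without KI_CD replicate 1 the SE was 0.31 and the adjusted p 0.143. Pcna, the sliding clamp of the replication fork, read 987, 1057 and 889 units in WT_CD and 1157, 1110 and 1245 in WT_MR. Its change of 0.26 ± 0.09 had a limma adjusted p of 0.336, and 0.292 without KI_CD replicate 1. Its other probe set read 880 to 1206 units over the 12 arrays, beside 889 to 1245 for the one used. Mcm7, another helicase subunit, read 193, 198 and 225 units in WT_CD and 240, 243 and 270 in WT_MR, a change of 0.29 ± 0.11 with a limma adjusted p of 0.470, and 0.352 without that array.

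**Figure D3:**
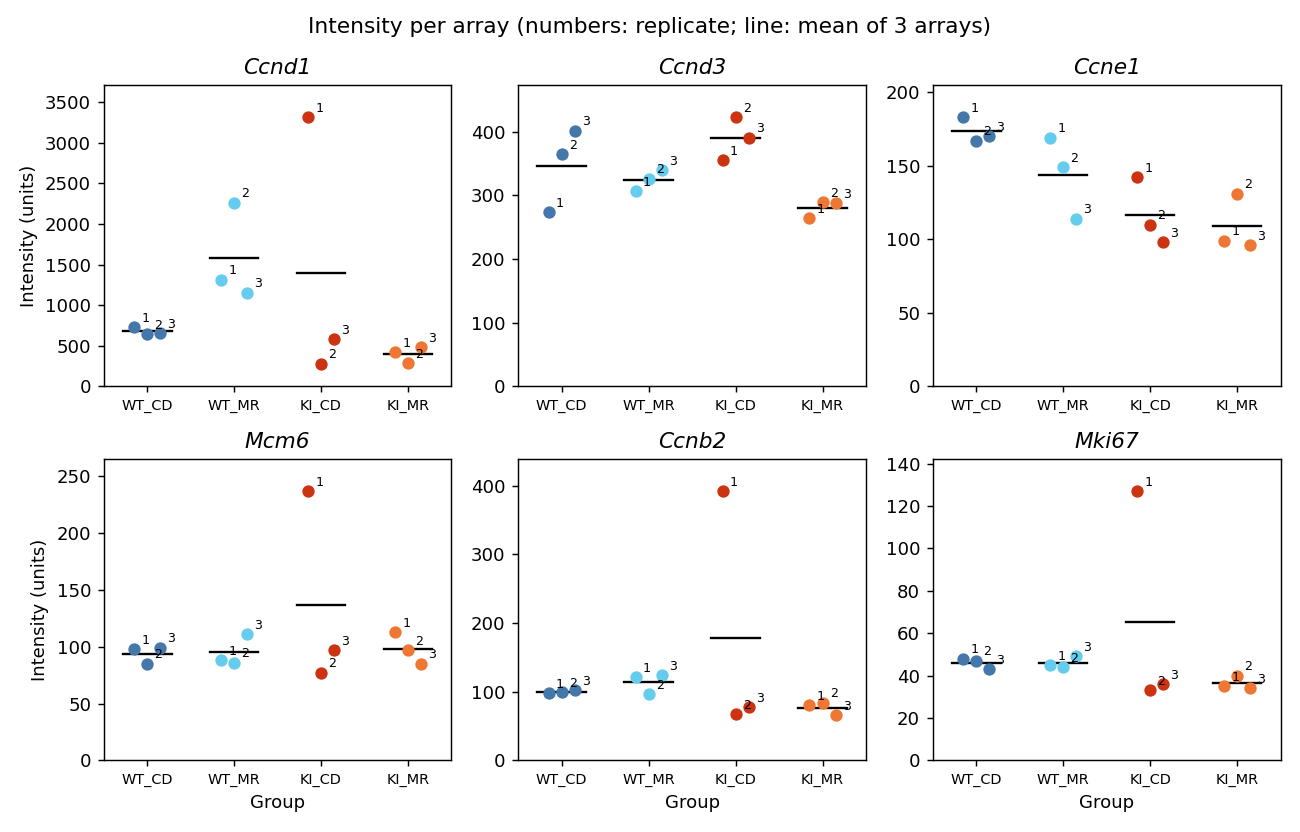
Intensity in units (linear axis from 0) of 6 genes in each array, by group, with the replicate number beside each point and a line at the mean of 3 arrays. KI_CD replicate 1 is far above the other arrays for Ccnd1, Mcm6, Ccnb2 and Mki67, with 3316 units for Ccnd1, while for Ccnd3 and Ccne1 it lies among them.

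Diet within the knock-in gave 0 of 34 genes past the threshold in KI_MR against KI_CD with all arrays, and 0.176% of all genes. The median log2 change was -0.26 against -0.02 over all genes, with 32 of 34 and 56.4% of all genes below 0. At an unadjusted p under 0.05, 4 genes were lower, against 5.08% of all genes, and 0 higher, against 2.7%. Without KI_CD replicate 1 the median was -0.02, that of all genes -0.01, and 21 of 34 lay below 0, beside 54.9% of all genes. Then too 0 of 34 passed, against 0.471% of all genes, and 2 were lower at an unadjusted p under 0.05, Ccnd3 and Cdk1, against 5.35% of all genes, which is about the same share.

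Ccnd3, the D-type cyclin that is high in lymphoid and other blood cells, read 355, 423 and 391 units in KI_CD and 264, 289 and 288 in KI_MR. The groups did not overlap, and KI_CD replicate 1 was the lowest of its 3. The log2 change was -0.47 ± 0.13 (SE), with a limma adjusted p of 0.234 with all arrays and -0.54 ± 0.14 with 0.180 without that array. In wild type mice Ccnd3 overlapped between diets, with 274, 365 and 402 units in WT_CD and 307, 326 and 340 in WT_MR.

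The test of whether diet acted differently by genotype, the interaction, called 0 of 34 genes and 0% of all genes, both with all arrays and without KI_CD replicate 1. With all arrays 3 genes, Ccnd1, Ccnd3 and Mcm4, were lower at an unadjusted p under 0.05, against 3.04% of all genes, and 0 higher, against 1.09%. Without KI_CD replicate 1 these were 2, Ccnd1 and Ccnd3, against 2.86%. The median was -0.29, against -0.01 over all genes, and -0.08 without that array. For Ccnd1 the interaction was -2.24 ± 0.96 (SE) with an adjusted p of 1 in limma, and -1.23 ± 0.46 without it, again with an adjusted p of 1. These 5 comparisons share groups, so their values for a gene are not independent.

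Genotype over both diets, a contrast added after the values were seen, uses all the KI and WT arrays. With all 12 arrays 0 of 34 passed in limma, against 2.81% of all genes, and at an unadjusted p under 0.05, 2 genes, Ccne1 and Cdc6, were lower and 0 higher, below the 11.8% and 10.2% of all genes. The nearest was Ccne1, with a log2 change of -0.49 ± 0.12 (SE) and a limma adjusted p of 0.0568. The median over the set was -0.03, against -0.04 over all genes.

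Without KI_CD replicate 1, 8 of the 34 genes fell with the knock-in and 0 rose, while 3.48% of all genes passed. The array was left out after its values in this set were seen, and it holds the highest value of 7 of these 8 genes, so the calls depend on that choice. Of the set, 31 of 34 genes lay below 0, as did 62.1% of all genes, with a median of -0.13 against -0.04 over all genes, and 15 were lower at an unadjusted p under 0.05, against 11.5% of all genes. In 7 genes, Ccnd1, Ccna2, Ccnb2, Aurkb, Cdc20, Top2a and Mki67, the 5 remaining KI arrays all lay below the 6 WT arrays. That held for 1.27% of all genes.

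By role, the genes that fell were Ccnd1 at cell cycle entry, Ccne1 and Cdk1 at the start of S phase and of mitosis, and Ccnb2, Aurkb, Cdc20, Top2a and Mki67 of mitosis. Of the 11 genes of licensing, nucleotide supply and the clamp, 0 passed. Ccnd1 fell by 1.36 ± 0.23 on the log2 scale (SE; limma adjusted p 0.0163), from 643 to 2262 units in WT to 276 to 582 units in KI. Ccnb2 read 98, 99 and 102 units in WT_CD, and 67 and 77 in KI_CD replicates 2 and 3. With the WT_MR and KI_MR values above it fell by 0.52 ± 0.09, with a limma adjusted p of 0.0164. The KI arrays other than KI_CD replicate 1 lay below every WT array for both genes.

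Aurkb read 103, 96 and 92 units in WT_CD, 101, 107 and 91 in WT_MR, 77 and 70 in KI_CD replicates 2 and 3, and 79, 82 and 73 in KI_MR. It fell by 0.38 ± 0.06, with a limma adjusted p of 0.0154, and KI_CD replicate 1, at 152 units, lay above every WT array. Cdc20 read 91, 86 and 83 units in WT_CD and 77 and 69 in KI_CD replicates 2 and 3, with 184 in replicate 1. It fell by 0.28 ± 0.05 over both diets (limma adjusted p 0.0244). Cdk1 read 84, 69 and 82 units in WT_CD, 65, 73 and 68 in WT_MR, 66 and 60 in KI_CD replicates 2 and 3, and 52, 53 and 55 in KI_MR. It fell by 0.34 ± 0.07 (limma adjusted p 0.0268), and the genotypes overlapped by 1 KI array. Ccne1 fell by 0.57 ± 0.11 with a limma adjusted p of 0.0285, with overlap between 96 to 131 units in KI and 114 to 183 in WT.

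Mki67 and Top2a were dim in WT_CD, WT_MR and KI_MR, and in KI_CD replicates 2 and 3, so their calls rest on values near or under the lower quartile in both genotypes. Mki67 read 48, 47 and 43 units in WT_CD, 45, 44 and 49 in WT_MR, 33 and 36 in KI_CD replicates 2 and 3, and 35, 40 and 34 in KI_MR. The 5 KI arrays lay below the 6 WT arrays, and the log2 change was -0.38 ± 0.06 (limma adjusted p 0.0154). Top2a read 39 to 45 units in WT and 33 to 36 units in those 5 KI arrays, with a log2 change of -0.27 ± 0.06 (limma adjusted p 0.0306). A second Top2a probe set read 15 to 20 units in all 12 arrays, KI_CD replicate 1 included, and so follows neither difference. The log2 changes of Mki67 and Top2a come from dim values and are not read as the size of a fall.

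The calls were not equally firm over further choices made on top of leaving out KI_CD replicate 1. Of 16 such settings, Ccnd1, Ccnb2 and Aurkb were called in 15, Mki67 in 14, Ccne1 and Cdc20 in 10, Cdk1 in 9 and Top2a in 8. Leaving out KI_CD replicate 2 as well, which leaves 1 array in the group, kept 1 call, Aurkb, and leaving out KI_CD replicate 3 kept 2, Ccnd1 and Ccnb2. Leaving out WT_CD replicate 1 or KI_MR replicate 3 as well kept 4 calls, and quantile normalization or leaving out WT_MR replicate 1 kept 5. The order was different among single alternatives to the fit on every array, most of which kept KI_CD replicate 1. There Ccne1 was called in 10 of 21, Ccnd1 in 2 of 21 and Aurkb in 2 of 20. Ccnb2, Cdc20 and Cdk1 were called in 1 of 20 each, and Mki67 and Top2a in 1 of 19. Ccne1 thus rested least on leaving out that array, though it did not pass in the fit on every array (limma adjusted p 0.0568).

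**Figure D4:**
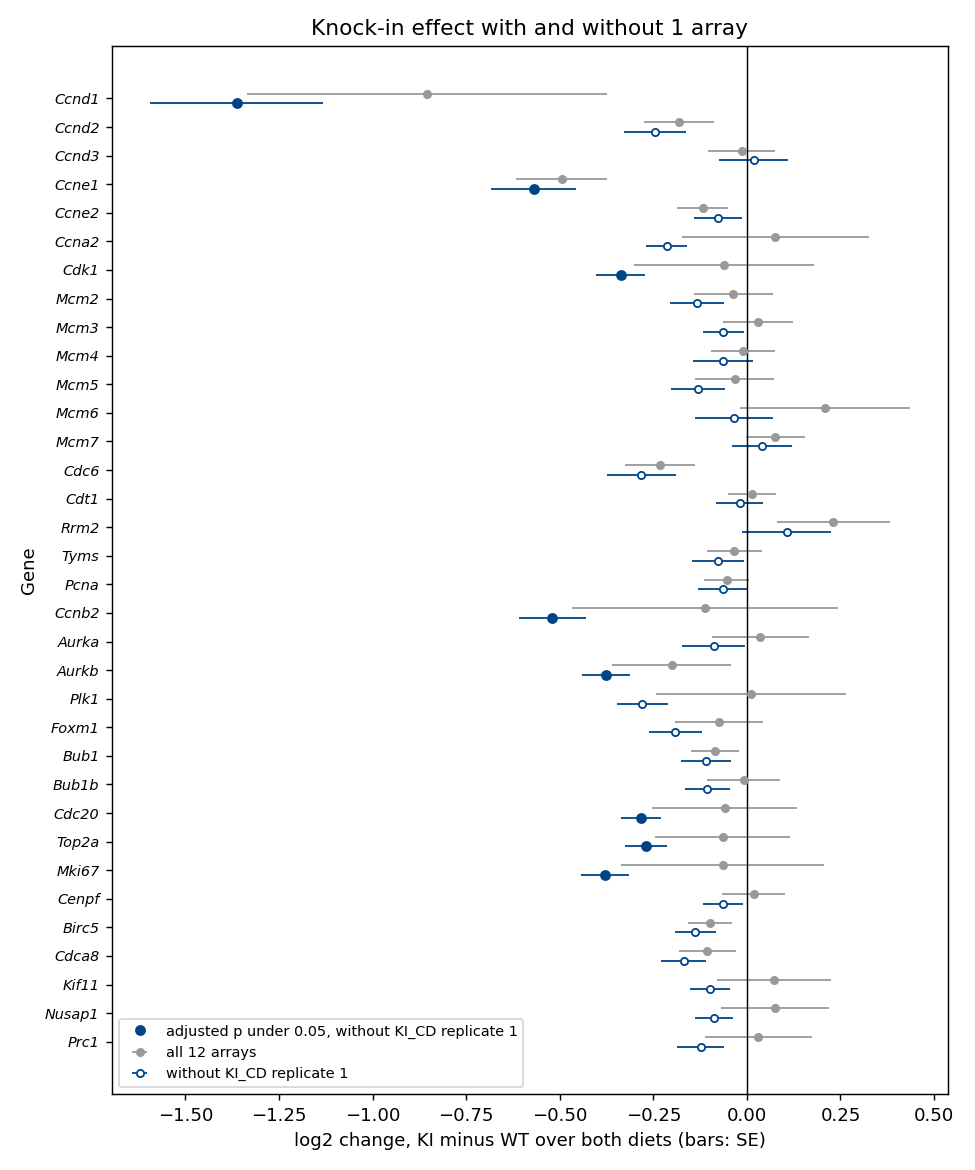
Log2 change of each of the 34 genes, KI minus WT over both diets, with bars of 1 SE, from all 12 arrays (grey) and without KI_CD replicate 1 (blue; filled where the limma adjusted p is under 0.05). Leaving out that array moves most genes to the left and shortens the bars; the 8 filled points run from -1.36 for Ccnd1 to -0.27 for Top2a.

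The other 26 genes of the set did not pass. Among the licensing genes, Mcm2 to Mcm7 encode the helicase, and Cdc6 and Cdt1 load it. Without KI_CD replicate 1 their changes with genotype ran from -0.28 ± 0.09 for Cdc6 (limma adjusted p 0.116) to 0.04 ± 0.08 for Mcm7 (0.771). Rrm2, the small subunit of ribonucleotide reductase, read 106 to 156 units in both genotypes, apart from 228 in KI_CD replicate 1. Tyms, thymidylate synthase, read 207 to 260 units in WT and 211 to 255 in those 5 KI arrays. Plk1, at 34 to 46 units in KI and 45 to 55 in WT, had a change of -0.28 ± 0.07 with a limma adjusted p of 0.0531, and Ccna2 one of -0.21 ± 0.05 with 0.0604. Foxm1, the transcription factor of the G2 and mitotic genes, had a change of -0.19 ± 0.07 with a limma adjusted p of 0.151. Ccnd2, the third D-type cyclin, read 360 to 470 units in KI and 446 to 523 in WT, and its change of -0.25 ± 0.08 had a limma adjusted p of 0.126.

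Bub1, Bub1b, Kif11, Nusap1, Prc1, Cenpf and Cdca8 were dim in every group, and Bub1 read under the lower quartile in KI_CD replicate 1 too. Aurka and Birc5 were dim in no group. Bub1 and Bub1b, kinases of the spindle checkpoint, read 25 to 34 units and 38 to 46 units over the arrays other than KI_CD replicate 1, where they read 30 and 59. Kif11, Nusap1 and Prc1, which build the spindle and its midzone, read 27 to 37 units outside that array and 64, 58 and 59 units in it. Cenpf, a kinetochore protein, read 52 units in it and Cdca8, of the passenger complex, 46. Birc5 (survivin), of the same complex, read 73 units there and 74 in WT_MR replicate 2, and its change with genotype was -0.14 ± 0.05 (limma adjusted p 0.173). Aurka, the centrosomal kinase, read 74 to 100 units outside KI_CD replicate 1 and 155 in it.

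Of 74 measured genes of the cycle outside the set, 4 rose and 1 fell with the knock-in over both diets in limma with all 12 arrays, and 3 rose and 2 fell without KI_CD replicate 1, beside 2.81% and 3.48% of all genes called. All 24 other mitotic genes lay below 0 in the latter fit, where 62.1% of all genes did, with a median of -0.10 against -0.04, but 1 of them passed, Spc25, a subunit of the kinetochore's NDC80 complex. Spc25 read 111, 89 and 191 units in WT_CD, 106, 191 and 178 in WT_MR, 132, 54 and 61 in KI_CD and 44, 57 and 48 in KI_MR. It fell by 1.17 ± 0.25 with all arrays (limma adjusted p 0.0378) and by 1.37 ± 0.21 without KI_CD replicate 1 (0.00974), and so passed both ways. KI_CD replicate 1 lay among the WT arrays, and the 5 other KI arrays below all of them.

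Genes that start replication were among those that rose, but the list of other replication genes was split. Of these 24 genes 13 lay above 0 and 11 below, both with all 12 arrays and without KI_CD replicate 1. Their medians were 0.05 and 0.01, against -0.04 over all genes in each fit. Without that array 7 were higher and 6 lower at an unadjusted p under 0.05 in limma, against 11.15% and 11.5% of all genes. Prim1, the primase subunit that makes the RNA primer, read 36, 34 and 40 units in WT_CD and 55, 48 and 46 in KI_CD, then 50, 52 and 53 in WT_MR and 59, 59 and 68 in KI_MR. It rose by 0.35 with the knock-in (limma adjusted p 0.0228; 0.0287 without KI_CD replicate 1), and the genotypes did not overlap within a diet. With diet in wild type its change was 0.50, with a limma adjusted p of 0.0532 with all arrays and 0.0185 without that array. The WT_CD values of Prim1 were dim, and those of KI_CD and WT_MR lay near the lower quartile of 45 to 51 units. Both changes therefore rest partly on dim values. Orc5 and Orc3, subunits of the origin recognition complex, each rose by 0.28 (limma adjusted p 0.0342 and 0.0478), and passed without that array as well (0.0444 and 0.0339). Rfc4, of the clamp loader, rose by 0.32 with all arrays (0.0487 in limma) and was not among the genes that passed without it.

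E2f1, the activator E2F, fell by 0.45 ± 0.10 without KI_CD replicate 1 (limma adjusted p 0.0407) and did not pass with it. It read 91 to 140 units in WT and 80 to 90 in the 5 remaining KI arrays, where the ranges did not overlap. Cdkn2c, the p18 inhibitor of the cyclin D kinases, read 186, 301 and 292 units in WT_CD and 434, 444 and 607 in WT_MR. That change of 0.95 ± 0.18 had a limma adjusted p of 0.0566 with all arrays and 0.0401 without KI_CD replicate 1. In the knock-in Cdkn2c read 351 to 414 units on the control diet and 427 to 451 on methionine restriction. With all arrays, 0 of the 74 genes passed in the 5 comparisons implied by the design.

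Markers of T and NK, Kupffer, B, erythroid and endothelial cells were mostly lower in the KI arrays in which the mitotic genes were lower. Those of neutrophils, hepatocytes and cholangiocytes were not. The sum of 9 T and NK cell markers was 515 to 588 units in the 5 KI arrays other than KI_CD replicate 1 and 592 to 701 units in the 6 WT arrays, with 7 of the 9 lower on average, and Cd3d, Klrb1c and Ncr1 were dim. All 11 Kupffer cell and macrophage markers were lower on average in those KI arrays, with sums of 6859 to 8663 against 6988 to 12646 units, which overlap, and none dim. The 6 B and plasma cell markers summed to 377 to 415 against 392 to 474, with 5 of 6 lower, and Cd79a, Ms4a1 and Jchain dim. The 8 neutrophil markers summed to 442 to 483 units against 418 to 480, with 3 of 8 lower on average, 1 past the limma threshold as higher over both diets, and Ly6g and Ngp dim. The 4 erythroid markers summed to 1385 to 1586 units in WT_CD, 762 to 918 in WT_MR, 695 to 919 in KI_CD and 479 to 912 in KI_MR, so the high sums were those of WT_CD. Hepatocyte markers summed to 92222 to 97472 units against 81087 to 93340. The 7 endothelial markers summed to 5112 to 6124 against 5193 to 6440, with 6 of 7 lower on average. For the 8 stellate cell markers the sums were 2594 to 3818 against 2528 to 3302, with 5 of 8 lower. Of these 1 passed in limma as lower over both diets without KI_CD replicate 1. Sums of the 7 cholangiocyte and progenitor markers were 521 to 1056 against 495 to 611, with 2 of 7 lower. Of the T and NK cell, Kupffer cell, B cell, erythroid and endothelial markers 0 passed in limma over both diets. The part of these cell types in the lower cycle genes was not tested.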

How the data were processed

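Per the labels, total RNA of 12 liver samples was biotin-labelled; the platform is an Affymetrix gene array. The deposited values are linear intensities, whole numbers from 10 to 20042; background correction and scaling steps are not given in the sources used here. Of 35512 probe sets, 21789 carried 1 gene symbol in the platform annotation, 1621 several and 12102 none, and the probe set with the highest mean stood for each of 19938 genes. Log2 values, with no further scaling, were fitted with limma 3.58.1 in R 4.3.3 (lmFit, eBayes; 4 group means, 8 residual and 3.14 prior degrees of freedom), with Benjamini-Hochberg adjustment over all genes and a threshold of 0.05. The fit was tested on simulated data. The labels gave the groups and no batch. With 3 arrays a group, the number of arrays limits the precision.

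The members and gene lists were chosen with earlier results of these data known, so lists are described by counts and medians and given no test. All members were named; of the 74 other cell cycle genes, those past the threshold or with the smallest p in a comparison could be named, and E2f1, Rfc4, Orc3 and Orc5 are such genes. Cell types are given by the summed level of fixed markers. Alternatives were other scaling, filters on dim genes, an offset of 32 units, the mean of probe sets, a trended robust prior, array weights, the compared arrays only, a replicate block and each array left out. Leaving out KI_CD replicate 1 together with other choices, the contrast of genotype over both diets and the counts of arrays without overlap were chosen after seeing the data. Promoter words were searched in Python 3.11.15.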

Additional observations from a re-analysis of the deposited data

How the results depend on the processing

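With all 12 arrays, 0 members passed in any of the 5 comparisons of the design under any single alternative, except under array weights, which called 2 in WT_MR against WT_CD and 4 in KI_MR against WT_MR, and in leave-one-out fits, which called 0 to 1 in KI_MR against WT_MR, the 1 without KI_CD replicate 1. Array weights put a weight of 16.7 on WT_MR replicate 1, so those fits rest largely on 1 array. For genotype over both diets, array weights called 5 members, and median centring, quantile normalization, removal of the dimmest 25% (23 members tested) or 50% of genes (10 tested), the trended robust prior and the replicate block called 1 each. Leave-one-out gave 0 to 8, the 8 without KI_CD replicate 1 and 1 each without WT_MR replicate 3 or KI_MR replicate 2. Over leave-one-out fits the members' median ran from -0.089 to 0.25 in KI_CD against WT_CD, from -0.39 to -0.019 in KI_MR against KI_CD and from -0.38 to -0.075 in the interaction. The values without KI_CD replicate 1 were -0.089, -0.019 and -0.075. Among the brighter 50% of genes, the per-array median deviation was 0.18 in KI_CD replicate 1 and 0.060 in KI_MR replicate 1. Same-numbered arrays deviated with correlations of -0.06 to 0.24, most of them above 0. Other pairs had correlations of -0.25 to 0.20, most of them below 0. Same-numbered arrays thus tended to deviate together, and whether the numbers mark a shared run was not tested. The labels do not say what the numbers stand for, and the main fit did not take them as pairs. The replicate block changed no other call of a member.

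Counts over all genes were less stable: 16, 35, 65 and 94 in KI_CD against WT_CD, KI_MR against KI_CD, WT_MR against WT_CD and KI_MR against WT_MR became 168, 130, 2204 and 4611 with array weights, 0, 0, 131 and 15 with the compared arrays only, and 2 to 32, 7 to 94, 17 to 199 and 3 to 226 in leave-one-out fits. The 561 over both diets became 4800 with array weights and 138 to 1945 in leave-one-out fits. The replicate block gave 177 in KI_MR against WT_MR. Without the dimmest 25% of genes KI_CD against WT_CD had 31; median centring gave 18 in KI_MR against KI_CD and 58 in KI_MR against WT_MR. The causes were not tested. Mitotic genes near the lower quartile are limited by signal over background, and no detection calls were at hand.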
